A study of Mus musculus with 15 samples.

Results

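Long noncoding RNAs that carry small nucleolar RNAs (snoRNAs) or microRNAs inside their genes were examined in mouse bone marrow with acute myeloid leukaemia (AML) and in normal marrow. The genes were chosen by a rule on the symbol that uses no measured value, although earlier results of these data were known. The symbol had the form Snhg with a number (snoRNA host gene) or Mir…hg (microRNA host gene), or was Gas5, Malat1, Neat1, Dleu2, Pvt1 or Kcnq1ot1. Of 38315 genes, 31 rows met this rule, with 30 different symbols, because Snhg4 had 2 rows. A value of at least 10 in at least 1 library was found for 29 rows, and Mir205hg and Mir670hg stayed under it. Tests covered the 26 rows with a value of at least 10 in at least 4 libraries, and Snhg9, Snhg18 and Mir155hg were too low for them. The 26 rows were 16 snoRNA hosts, 7 microRNA hosts, the nuclear RNAs Malat1 and Neat1, and Kcnq1ot1, which silences imprinted neighbours in cis. Pvt1 is counted with the microRNA hosts, although the annotation used here lists 0 microRNA genes inside it. Snhg10 and Snhg20 are counted with the snoRNA hosts by symbol, although it lists 0 genes of the type snoRNA and 1 of the type scaRNA inside each.

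Total RNA was sequenced from the marrow of 7 mice with AML and the genotype NUP98-NSD1/FLT3-ITD, from 4 wild-type whole marrows and from 4 wild-type lineage-negative marrows. NUP98-NSD1 is a fusion of a nuclear pore protein with a histone methyltransferase. FLT3-ITD is a form of the receptor tyrosine kinase FLT3 with a duplicated stretch. Lineage-negative marrow is marrow from which cells with markers of mature lineages were removed. Strain, age, the promoters of the transgenes and any pooling of animals are not given in the sources used here, so p-values measure the spread between these libraries, which may in part be technical.

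Depth, estimated from the value of 1 read, was 20.3 to 35.1 M reads (M, mega) in AML, 11.4 to 17.2 M in whole marrow and 20.3 to 28.1 M in lineage-negative marrow. All levels are the authors' normalized counts, and 3 reads corresponded to 1.96 to 4.09 of them. Summed markers of progenitors (Kit, Cd34, Flt3, Gata2 and Hlf) were 15340 to 19242 in lineage-negative marrow, 2296 to 8171 in AML and 1225 to 2231 in whole marrow. Red cell genes took 7.56% to 11.1% of the total in whole marrow and at most 0.234% in lineage-negative marrow and 0.122% in AML. No marker of the 7 lists was at 0 throughout a group, and the part of cell composition in the results below was not tested. In bulk marrow, fewer cells of a type and less RNA per cell cannot be told apart. Scaling mattered for comparisons with whole marrow. The 18941 genes that passed the filter had a median log2 difference of 0.67 between AML and whole marrow, of 0.59 between lineage-negative and whole marrow, and of 0.02 between AML and lineage-negative marrow. TMM scaling (trimmed mean of M values) brought these medians to −0.01, −0.09 and 0.03, so every difference was computed under both scalings.

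SnoRNAs guide the chemical modification of ribosomal RNA. Box C/D snoRNAs direct 2′-O-methylation through fibrillarin, and box H/ACA snoRNAs direct pseudouridylation through dyskerin. In mammals most are cut from introns of host transcripts, and the spliced exons of hosts such as Gas5 and Snhg1 code for no conserved protein and are known to be degraded by nonsense-mediated decay. MicroRNA hosts are cleaved by Drosha to release hairpins, which Dicer trims to mature microRNAs. A host's transcript level is therefore not the level of the small RNA it carries.

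A part of the mature microRNAs of the hosts described below is printed to show seeds that these hosts carry. Bases 2 to 8, the seed that pairs with target messages, are in capitals, and sequences are those of RefSeq for GRCm38.p6. Dleu2 carries 2 microRNAs of 1 seed, AGCAGCA.
miR-15a-5p: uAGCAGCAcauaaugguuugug
miR-16-5p: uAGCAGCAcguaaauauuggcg
Mir22hg carries a microRNA with the seed AGCUGCC.
miR-22-3p: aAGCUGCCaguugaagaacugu
Mir17hg carries the cluster miR-17 to miR-92a, whose 6 members fall into 4 seeds: miR-17 and miR-20a share AAAGUGC, and miR-19a and miR-19b share GUGCAAA.
miR-17-5p: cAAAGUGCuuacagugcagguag
miR-20a-5p: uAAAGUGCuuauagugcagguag
miR-18a-5p: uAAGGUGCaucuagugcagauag
miR-19a-3p: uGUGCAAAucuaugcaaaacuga
miR-19b-3p: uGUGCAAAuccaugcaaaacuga
miR-92a-3p: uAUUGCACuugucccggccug
Mir99ahg and Mir100hg are separate genes that carry microRNAs of the same seed ACCCGUA, and each also carries a copy of miR-125b. Each holds a let-7 gene too, which is not printed.
miR-99a-5p: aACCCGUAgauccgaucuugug
miR-100-5p: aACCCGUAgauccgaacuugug
miR-125b-5p: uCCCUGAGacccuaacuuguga
Mir142hg carries the blood cell microRNA miR-142a.
miR-142a-3p: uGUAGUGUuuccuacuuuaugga

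The transcription starts of snoRNA hosts are printed because many snoRNA hosts are known to begin with a pyrimidine tract, as ribosomal protein genes do. Each run holds 20 bases before the RefSeq start and the 40 bases from it, in GRCm38.p6, and CTTT near the start is in capitals. The windows are chr1:161035146-161035205 on the plus strand for the second listed start of Gas5, chr9:88522858-88522917 on the minus strand for Snhg5, chr4:132308658-132308717 on the plus strand for Snhg12, chr11:6528721-6528780 on the minus strand for Snhg15, chr11:116671640-116671699 on the plus strand for Snhg16 and chr3:123508297-123508356 on the minus strand for Snhg8. For 1 start without CTTT between 5 bases before and 25 bases after it, that of Snhg1, the window is chr19:8723467-8723526 on the plus strand.
Gas5: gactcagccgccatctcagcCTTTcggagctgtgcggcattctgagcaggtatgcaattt
Snhg5: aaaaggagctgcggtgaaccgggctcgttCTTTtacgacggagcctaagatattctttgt
Snhg12: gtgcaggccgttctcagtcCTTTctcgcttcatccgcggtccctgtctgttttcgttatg
Snhg15: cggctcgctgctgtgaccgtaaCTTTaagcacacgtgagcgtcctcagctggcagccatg
Snhg16: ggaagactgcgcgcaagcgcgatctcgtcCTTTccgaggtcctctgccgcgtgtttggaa
Snhg8: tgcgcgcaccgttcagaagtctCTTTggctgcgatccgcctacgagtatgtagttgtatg
Snhg1: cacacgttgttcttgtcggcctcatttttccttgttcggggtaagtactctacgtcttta
CTTT on the transcribed strand, from 5 bases before to 25 bases after the start, was present for 7 of the 13 tested snoRNA hosts with a RefSeq entry (53.8%), the 6 above and Snhg10, and in 7 of their 15 entries (46.7%). The same window held CTTT in 3694 of 32851 RefSeq entries of all genes (11.2%). Its reverse complement AAAG was present for 1 of the 13 hosts (7.69%) and in 11.3% of all entries. The letters were chosen after these windows had been seen, so this is a description with no test.

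Many snoRNA hosts were lower in AML than in lineage-negative marrow. Gas5, Snhg1, Snhg4, Snhg5, Snhg15, Snhg16 and Snhg17 fell by log2 differences between 1.17 and 1.81, and no snoRNA host rose. These 7 were called lower under the deposited and the TMM scaling, which is 43.75% of the 16 hosts, against 12.5% of all genes tested with the deposited scaling and 12.3% with both. A gene is called where limma gave an adjusted p under 0.05 and the log2 difference was 1 or more in size. The median log2 difference of the 16 hosts was −1.004, against 0.02 over all genes tested, and it was −1.31 for the 12 hosts with a mean of at least 50. Groups did not overlap, with AML lower, for 8 of the 16 hosts and 9 of all 26 rows, against 17.6% of all genes. AML lay above without overlap for 2 of the 26 rows, against 17% of all genes.

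Gas5 (ENSMUSG00000053332, chr1:161034422-161038539, plus strand), a host of box C/D snoRNAs named for its rise in growth-arrested cells, had the largest fall of a snoRNA host. In lineage-negative replicates 1 to 4 it was at 6226, 7095, 8287 and 7195 normalized counts. In AML its lowest, median and highest values were 1197, 2102 and 2804, and whole marrow had 994, 1274, 1608 and 1416. All 7 AML libraries lay below all lineage-negative libraries. AML replicate 1 lay inside the range of whole marrow, and the other 6 lay above it. Gas5 was 3.51-fold lower in AML than in lineage-negative marrow (log2 difference −1.81, SE 0.21, adjusted p = 6.06e-07). Folds are on the scale of log2(value + 1), which understates changes of low genes. The gene overlaps Zbtb37 on the opposite strand, and the strand used in counting is not given in the sources used here.

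Snhg17 (chr2:158353700-158361580, minus strand) was at 959, 768, 1037 and 908 in lineage-negative marrow, at 253, 270.2 and 369 as the lowest, median and highest AML values, and at 93.3, 126, 209 and 132 in whole marrow. AML was 3.07-fold lower than lineage-negative marrow (log2 difference −1.62, SE 0.21, adjusted p = 2.86e-06), and the 3 groups did not overlap. Snhg1 (chr19:8723475-8726443, plus strand), which carries 8 annotated box C/D snoRNA genes, was at 1638, 2917, 2964 and 2419 in lineage-negative marrow, 645, 908 and 1092 in AML and 346, 479.7, 629 and 643 in whole marrow. Its fall in AML against lineage-negative marrow was 2.73-fold (log2 difference −1.45, SE 0.21, adjusted p = 1.06e-05). The Snhg1 value nearest to another group was that of AML replicate 1, at 645 against 643 in whole marrow replicate 4.

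Snhg15 (chr11:6525591-6528760, minus strand) and Snhg16 (chr11:116671660-116675799, plus strand) are hosts of 1 and 3 annotated snoRNA genes. Snhg15 was at 638, 679, 729.8 and 626 in lineage-negative marrow, at 180.2, 211 and 357 in AML and at 53.0, 108, 135 and 127 in whole marrow. Snhg16 was at 658, 542, 646 and 456 in lineage-negative marrow, 145, 192 and 277 in AML and 49.0, 57.2, 70.0 and 86.6 in whole marrow. Every Snhg15 and Snhg16 value in AML lay between the other groups. Against lineage-negative marrow Snhg15 was 2.86-fold lower (log2 difference −1.52, SE 0.25, adjusted p = 4.38e-05), and Snhg16 was 2.76-fold lower (log2 difference −1.46, SE 0.23, adjusted p = 2.49e-05). Snhg16 overlaps St6galnac2 on the opposite strand. The deposited gene model of Snhg16 is 13469 bases long, longer than the span given here, so reads outside that span may have been counted.

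Snhg4 and Snhg5 completed the 7. The noncoding row of Snhg4, host of the H/ACA snoRNA Snora74a, was at 856, 895, 1097 and 824 in lineage-negative marrow, 241, 254 and 464 in AML and 120.4, 144, 206 and 197 in whole marrow. Its second row, annotated as protein coding and overlapping Matr3, was low, at 4.44 to 39.5 in AML against 28.2 to 73.9 in lineage-negative marrow, and reads of both rows may have been split between them. Snhg5 (chr9:88521050-88522929, minus strand), host of Snord50a and Snord50b, was at 1544, 1927, 1944 and 1765 in lineage-negative marrow, 580.2, 799.8 and 964 in AML and 356, 439, 537 and 428 in whole marrow. The groups did not overlap for the noncoding Snhg4 row or for Snhg5. The deposited gene model of Snhg5 is 28295 bases long, longer than the span given here, so reads outside that span may have been counted. The log2 difference between AML and lineage-negative marrow was −1.59 for Snhg4 (SE 0.22, adjusted p = 8.18e-06) and −1.17 for Snhg5 (SE 0.17, adjusted p = 1.62e-05).

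**Figure D1:**
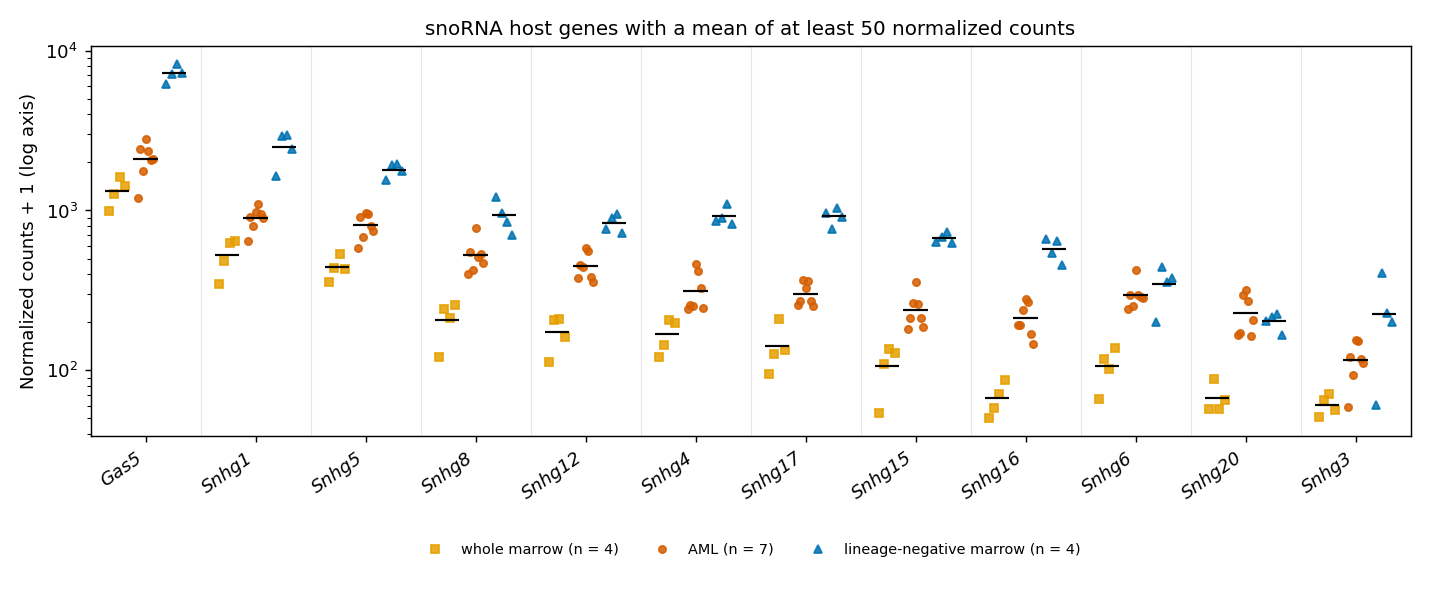
Normalized counts plus 1 on a log axis for the 12 snoRNA hosts with a mean of at least 50, a point per library, with the group mean as a bar. Lineage-negative marrow (blue triangles) is highest and whole marrow (yellow squares) lowest for most hosts, while for Snhg20 the AML libraries (orange circles) overlap lineage-negative marrow.

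The other 9 snoRNA host rows were not called between AML and lineage-negative marrow. Snhg12 and Snhg8 were under the size threshold, with log2 differences of −0.9 (adjusted p = 0.00111) and −0.84 (adjusted p = 0.00503). Snhg12 was at 354 to 584 in AML against 723 to 947 in lineage-negative marrow, with no overlap. Snhg3, host of Snora73a and Snora73b, had a log2 difference of −0.72 (adjusted p = 0.129), and lineage-negative replicate 1, at 59.5, was far below the 199 to 407 of the other lineage-negative libraries. Without that library Snhg3 differed by −1.26 and was called lower. Rcc1 overlaps Snhg3 on the same strand and had means of 1120 in AML, 714 in whole marrow and 2077 in lineage-negative marrow. The log2 differences of Snhg6, Snhg10, Snhg14 and Snhg20 were −0.18, −0.061, 0.19 and 0.12, each smaller than its SE. Snhg11 and the protein-coding row of Snhg4 had values of 0.63 and −1.11 that did not pass the test.

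Against whole marrow, AML levels of snoRNA hosts were higher with the deposited scaling, but only Snhg20 rose under both scalings. With the deposited scaling 9 of 16 hosts were called higher (56.25%), against 27.3% of all genes, and with TMM 1 of 16, against 4.73% of all genes. Snhg20 (chr11:117076008-117078955, plus strand) was at 163, 206 and 318 as the lowest, median and highest AML values and at 55.9, 87.2, 55.9 and 63.9 in whole marrow, with no overlap. Lineage-negative marrow had 203, 216, 226 and 166, inside the range of AML. Snhg20 was 3.35-fold higher in AML than in whole marrow (log2 difference 1.75, SE 0.24, adjusted p = 8.84e-06), and its log2 difference was 1.06 with TMM (adjusted p = 0.00134). Snhg16 and Snhg6 had log2 differences of 1.67 and 1.52, and 0.98 and 0.82 with TMM, under the size threshold. The median of the 16 hosts was 1.10 against 0.67 over all genes, and 0.44 against −0.01 with TMM. Gas5 had 0.65 with the deposited scaling and −0.051 with TMM. Over all 26 rows, 11 were called higher in AML with the deposited scaling, and 7 without whole marrow replicate 1, the library with the lowest total. Without overlap, AML lay above whole marrow for 12 of the 26 rows, against 35.8% of all genes, and below it for 2, against 7.88%. The 2 were Snhg11 and Mir100hg, which passed the filter only with the help of whole marrow, so nothing is read from them.

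Lineage-negative marrow exceeded whole marrow for most snoRNA hosts. With the deposited scaling 13 of 16 hosts were higher (81.25%), against 33.1% of all genes, and under both scalings 10 were (62.5%), against 11% of all genes. The 10 were Gas5, Snhg1, Snhg5, Snhg8, Snhg12, Snhg15, Snhg16, Snhg17 and both Snhg4 rows, of which the protein-coding row was at 0.948 times the receptor level described below in whole marrow. Snhg16 had the largest rise, 8.75-fold (log2 difference 3.13, SE 0.25, adjusted p = 2.56e-08), and 2.43 on the log2 scale with TMM. The rises of Snhg3, Snhg6 and Snhg20 were called with the deposited scaling alone, and their TMM values were 0.9, 1.00 and 0.93. Lineage-negative marrow lay above whole marrow without overlap for 15 of the 26 rows, against 41.1% of all genes, and below it for 3, against 16.6%. The 3 include Snhg11, which passed the filter only through whole marrow, so no share is read from them. The 3 comparisons share libraries pairwise, so their values are set side by side and not related to each other.

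For 7 snoRNA hosts every whole marrow library lay below every AML library, and every AML library below every lineage-negative library. These were Snhg1, Snhg4, Snhg5, Snhg12, Snhg15, Snhg16 and Snhg17, or 7 of the 26 rows tested, against 6.65% of all genes. With TMM the order held without overlap for Snhg12 and Snhg16, or 2 of 26, against 1.06% of all genes. The progenitor markers had the same order without overlap as sums of normalized counts with the deposited scaling. As a share of the total, AML, at 0.00918% to 0.0335%, overlapped whole marrow, at 0.0116% to 0.0125%. Lineage-negative marrow, at 0.0729% to 0.108%, stayed above both. The part of progenitor content in the order of the hosts was not tested.

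Among the 12 hosts with a mean of at least 50, AML replicate 4 had the highest AML value for 10, against 13.1% of all genes kept, and it was the deepest library, at 35.1 M reads. AML replicate 1 had the lowest AML value for 8 of the 12, against 14.9% of all genes. Whole marrow replicate 1 was lowest in its group for all 12, as for 73.5% of all genes, and had the smallest total of normalized counts of any library. In lineage-negative marrow the lowest value was in replicate 4 for 6 hosts, in replicate 1 for 5 and in replicate 2 for 1, and replicate 3 was highest for 8. The part of depth and scaling in these orders was not tested.

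In whole marrow, Snhg11 and Snhg14 were near the level of reads in silent genes. Snhg11 was at 43.1, 33.5, 26.1 and 23.2 in whole marrow, at 6.35, 0.881, 1.76 and 0.653 in lineage-negative marrow and at 0, 4.5 and 8.64 as the lowest, median and highest AML values. All whole marrow libraries lay above all others, and the gene passed the filter on low values through whole marrow alone. The log2 difference of AML from whole marrow was −2.86, and −3.48 with TMM. Because the filter let Snhg11 in only where it was high, these values are a description, and nothing is read from its lower calls against whole marrow. Snhg14 is a transcript of the imprinted Snrpn and Ube3a region that carries 208 annotated snoRNA genes. It was at 19.1 to 53.3 in AML, 33.2 to 88.5 in whole marrow and 22.1 to 57.5 in lineage-negative marrow. With TMM only, Snhg14 was called lower than in whole marrow both in AML, at −1.07, and in lineage-negative marrow, at −1.27. Olfactory and vomeronasal receptor genes, which blood cells do not use, had 2.52 normalized counts per kilobase of exon in whole marrow, 0.302 in AML and 0.117 in lineage-negative marrow. Per kilobase, whole marrow levels were 1.47 times this receptor level for Snhg11 and 0.866 times for Snhg14, but 139.8 times for Gas5. The length of Snhg11 is approximate, since its gene model in the table differs from that of the annotation used.

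**Figure D2:**
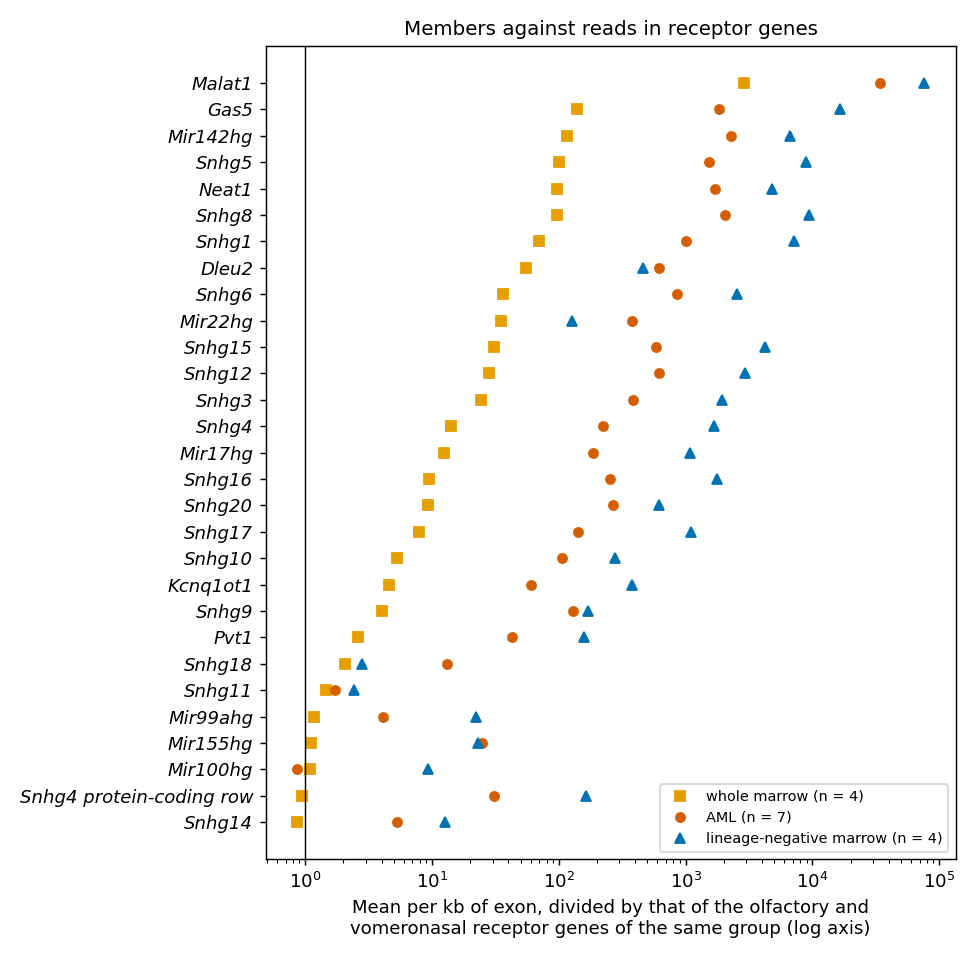
Mean normalized counts per kilobase of exon of each measured gene, divided by the mean of olfactory and vomeronasal receptor genes in the same group, on a log axis with a line at 1. In whole marrow (yellow squares) Snhg14, Snhg11, Mir99ahg, Mir100hg, Mir155hg and the protein-coding row of Snhg4 lie near the line, while Malat1 and Gas5 lie far above it in every group.

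MicroRNA hosts moved in both directions. Of the 7 tested, Dleu2 and Mir22hg rose in AML against lineage-negative marrow and Mir17hg and Mir99ahg fell, under both scalings. Higher calls took up 17.7% of all genes in that comparison with the deposited scaling and 17.5% with both, and lower calls 12.5% and 12.3%, against 2 of 7 in each direction here. The median log2 difference of the 7 hosts was −0.59, against 0.02 over all genes.

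Mir22hg (ENSMUSG00000085148, chr11:75461539-75466676, plus strand), host of the miR-22-3p printed above, had the largest rise of the set. It was at 39.0, 9.69, 36.1 and 28.7 normalized counts in lineage-negative marrow, at 143, 204 and 360.3 as the lowest, median and highest AML values, and at 76.2, 199.6, 226 and 180.1 in whole marrow. All AML libraries lay above all lineage-negative libraries, and AML and whole marrow overlapped. Mir22hg was 7.98-fold higher in AML than in lineage-negative marrow (log2 difference 3.00, SE 0.37, adjusted p = 1.6e-06) and 6.06-fold lower in lineage-negative than in whole marrow (log2 difference −2.6, SE 0.41, adjusted p = 2.35e-05). Against whole marrow the log2 difference in AML was 0.4 and turned to −0.3 with TMM. Tlcd2 overlaps Mir22hg on the same strand and had means of 79.9 in AML, 52.1 in whole marrow and 212 in lineage-negative marrow, so lineage-negative marrow was highest for Tlcd2 and lowest for Mir22hg.

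Dleu2 (ENSMUSG00000097589, chr14:61602839-61682373, minus strand), host of miR-15a and miR-16, was at 354, 612, 809 and 653 in lineage-negative marrow, at 1116, 2188 and 2735 in AML and at 941, 1479, 1588 and 2235 in whole marrow. Every AML library lay above every lineage-negative library. The rise in AML was 3.52-fold (log2 difference 1.81, SE 0.26, adjusted p = 1.3e-05), and lineage-negative marrow was 2.56-fold below whole marrow (log2 difference −1.36, SE 0.3, adjusted p = 0.000571). Against whole marrow Dleu2 differed in AML by 0.46 (SE 0.26, adjusted p = 0.136) and by −0.24 with TMM. Trim13 and Kcnrg overlap Dleu2 on the opposite strand. Trim13 had means of 113 in AML, 53.6 in whole marrow and 195 in lineage-negative marrow, and Kcnrg 51.6, 23.8 and 20.7. Gm37472, Gm37420 and Gm27010 overlap Dleu2 on the same strand. In the same order, Gm37472 had means of 657, 291 and 419, Gm37420 275, 112 and 116, and Gm27010 38.6, 26.4 and 10.8. The 10 neutrophil markers together made up 1.46% to 4.64% of the total in AML, 3.79% to 5.85% in whole marrow and 0.545% to 0.821% in lineage-negative marrow, which like Dleu2 and Mir22hg was lowest in lineage-negative marrow. The 5 monocyte and macrophage markers made up 0.112% to 0.191% in AML, 0.0763% to 0.0995% in whole marrow and 0.0415% to 0.0651% in lineage-negative marrow. The 6 B cell markers had their lowest median sum in lineage-negative marrow too, with AML overlapping it. The part of neutrophil, monocyte and B cell content in the values of Dleu2 and Mir22hg was not tested.

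Mir17hg (chr14:115042879-115046727, plus strand), host of the cluster from miR-17 to miR-92a and a known target of Myc, fell in AML against lineage-negative marrow. It was at 259, 498, 601 and 441 in lineage-negative marrow, at 77.7, 180.0 and 309 in AML and at 74.5, 95.1, 119 and 150.1 in whole marrow, and AML overlapped both other groups. AML was 2.33-fold lower than lineage-negative marrow (log2 difference −1.22, SE 0.32, adjusted p = 0.00394). Against whole marrow it differed by 0.79, or 0.1 with TMM, and lineage-negative marrow was higher than whole marrow by 2.01, or 1.31 with TMM.

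Mir99ahg and Mir100hg, the hosts with the shared seed ACCCGUA, had lower values in AML than in whole marrow under both scalings. Mir100hg passed the filter only with the help of whole marrow, where it was high. Its values are therefore a description, and nothing is read from its lower call. Lower calls were 11.3% of all genes there, and no share is read from the 2 of 7 microRNA hosts, which include Mir100hg. Mir100hg was at 88.0, 53.6, 57.4 and 62.8 in whole marrow, at 0, 3.82 and 17.3 as the lowest, median and highest AML values, and at 1.82, 2.64, 3.53 and 95.3 in lineage-negative marrow. Whole marrow lay above every AML library, and lineage-negative replicate 4 stood apart from the other 3, which were near the value of 3 reads or below it. The log2 difference of Mir100hg between AML and whole marrow was −3.9 (SE 0.89), and the gene was listed at 0 in AML replicates 2 and 3. Mir99ahg was at 54.7, 46.9, 37.6 and 28.7 in whole marrow, 6.75, 11.9 and 39.5 in AML and 21.8, 37.0, 49.4 and 41.8 in lineage-negative marrow, and all groups overlapped. It was 2.58-fold lower in AML than in whole marrow (log2 difference −1.37, SE 0.42, adjusted p = 0.00759) and 2.28-fold lower than in lineage-negative marrow (log2 difference −1.19, SE 0.42, adjusted p = 0.0242), a call lost without lineage-negative replicate 2, 3 or 4 and with a pseudocount of 5. Per kilobase, whole marrow levels were 1.09 times the receptor level for Mir100hg and 1.17 times for Mir99ahg. In AML these ratios were 0.864 and 4.11. In lineage-negative marrow the ratio for Mir99ahg was 22.4.

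Mir142hg (chr11:87755577-87757270, plus strand), host of a microRNA used throughout the blood lineages, and Pvt1, a neighbour of Myc, were not called between AML and lineage-negative marrow. Mir142hg was at 102, 149 and 356 as the lowest, median and highest AML values, at 102, 71.0, 42.8 and 99.6 in whole marrow and at 569, 56.4, 97.8 and 122 in lineage-negative marrow, where replicate 1 stood far above the other 3. Its rise in AML against whole marrow, 1.2 (adjusted p = 0.0291), was 0.51 with TMM and was not called then, nor without AML replicate 4 or whole marrow replicate 2 or 3. Pvt1 (chr15:62037986-62378096, plus strand) was at 52.9, 78.6 and 141 in AML, 32.3, 32.2, 56.4 and 61.4 in whole marrow and 96.2, 144, 139 and 143 in lineage-negative marrow. Pvt1 differed by −0.59 between AML and lineage-negative marrow (adjusted p = 0.116) and by 0.96 between AML and whole marrow (adjusted p = 0.00861), under the size threshold, and the latter was 0.27 with TMM. Without AML replicate 5 or 7, or whole marrow replicate 3 or 4, the difference from whole marrow was 1.02 to 1.12 and was called. Mir155hg, host of miR-155, was at 1.08, 4.94 and 31.9 in AML, 5.39, 1.34, 5.22 and 4.09 in whole marrow and 1.82, 5.29, 4.41 and 3.92 in lineage-negative marrow. AML replicates 2 and 3, at 22.5 and 31.9, were the libraries with Mir155hg above 10, and the gene was not tested.

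**Figure D3:**
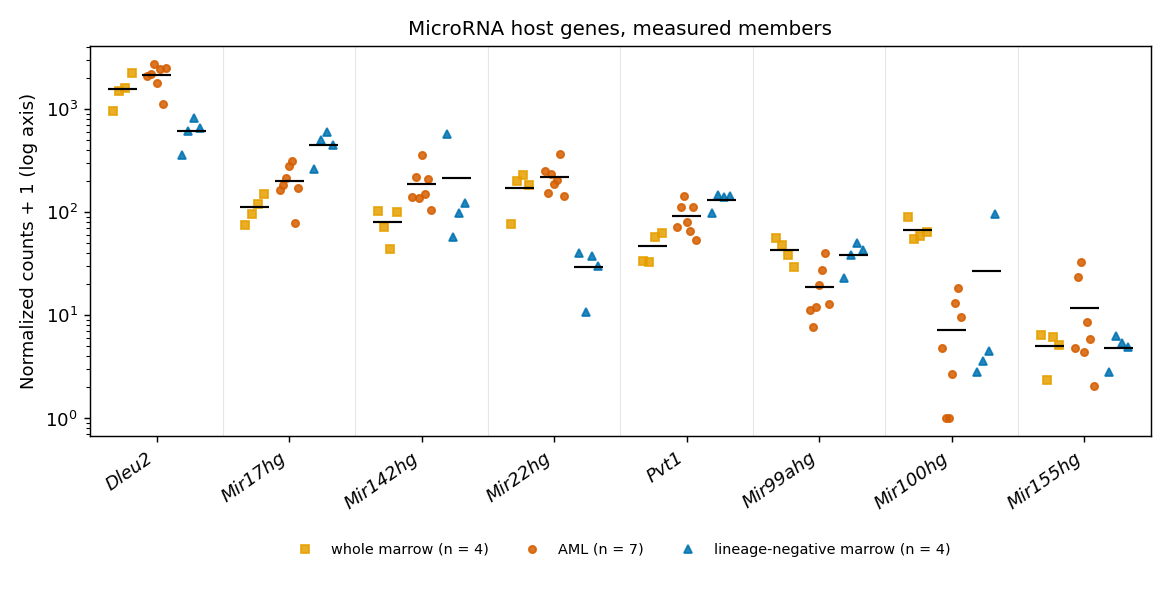
Normalized counts plus 1 on a log axis for the 8 measured microRNA hosts, a point per library, with the group mean as a bar. Dleu2 and Mir22hg are lowest in lineage-negative marrow (blue triangles), Mir17hg is highest there, and Mir100hg is highest in whole marrow (yellow squares) apart from 1 lineage-negative library.

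In the comparison of lineage-negative with whole marrow, the microRNA hosts called under both scalings were Mir17hg, higher, and Dleu2, Mir22hg and Mir100hg, lower. Lower calls were 17.2% of all genes there, and no share is read from the 3 of 7 hosts, because they include Mir100hg. With Kcnq1ot1 and the snoRNA hosts, 12 of the 26 rows were higher, against 11% of all genes, and 4 lower, among them Snhg11 and Mir100hg. The difference of Mir100hg, −3.00, was not called without lineage-negative replicate 1, at −2.48, or with a pseudocount of 0.1. Snhg11 and Mir100hg passed the filter only with the help of whole marrow, so nothing is read from their lower calls or from the count of 4.

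Malat1 and Neat1, neighbouring genes whose RNAs build nuclear structures, were not called between AML and lineage-negative marrow. Malat1 (chr19:5795690-5802672, minus strand) is retained in nuclear speckles, and Neat1 (chr19:5824708-5845478, minus strand) is the scaffold of paraspeckles. Malat1 was at 50227, 66554 and 107310.0 normalized counts as the lowest, median and highest AML values, at 29087, 44706, 54229.5 and 75983 in whole marrow and at 56909, 47409.7, 84172 and 60156 in lineage-negative marrow, and all groups overlapped. It made up 0.172% to 0.471% of a library's total and had the highest level per kilobase of the set in each group, at 10342 in AML, 7304 in whole marrow and 8902 in lineage-negative marrow. Its log2 difference was 0.21 against lineage-negative marrow (SE 0.31, adjusted p = 0.614) and 0.55 against whole marrow (SE 0.31, adjusted p = 0.135), the latter −0.15 with TMM.

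Neat1 was at 7599, 10441 and 12635 in AML, 3113, 4936, 5510.0 and 6702 in whole marrow and 12661, 6040.4, 20097 and 8227 in lineage-negative marrow. AML lay above all whole marrow libraries and inside the wide range of lineage-negative marrow, whose replicates 2 and 3 were its extremes. The rise of Neat1 against whole marrow was 2.14-fold (log2 difference 1.1, SE 0.28, adjusted p = 0.00223) with the deposited scaling and was not called with TMM, at 0.4, or without whole marrow replicate 1, at 0.88. Against lineage-negative marrow Neat1 differed by −0.021 (SE 0.28, adjusted p = 0.958). A p above the threshold does not show that the levels were equal.

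Kcnq1ot1 (ENSMUSG00000101609, chr7:143203458-143296549, minus strand), an unspliced RNA of the paternal allele that silences neighbouring imprinted genes, was also lower in AML than in lineage-negative marrow. It was at 3004, 2683, 5171 and 5678 in lineage-negative marrow, at 1264, 1781 and 1934 in AML and at 962, 838, 1099 and 1378 in whole marrow. AML lay below every lineage-negative library, 2.34-fold (log2 difference −1.23, SE 0.21, adjusted p = 9.39e-05), and overlapped whole marrow, from which it differed by 0.67, or −0.024 with TMM. Lineage-negative replicates 3 and 4 were higher than replicates 1 and 2. The gene overlaps Kcnq1 on the opposite strand.

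**Figure D4:**
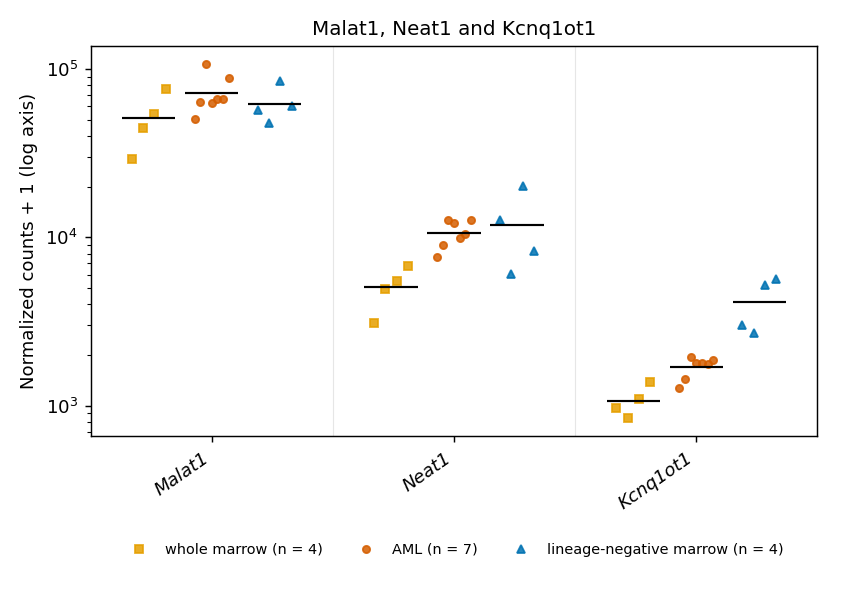
Normalized counts plus 1 on a log axis for Malat1, Neat1 and Kcnq1ot1, a point per library, with the group mean as a bar. The groups overlap for Malat1, and lineage-negative marrow (blue triangles) lies above the other groups for Kcnq1ot1.

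**Figure D5:**
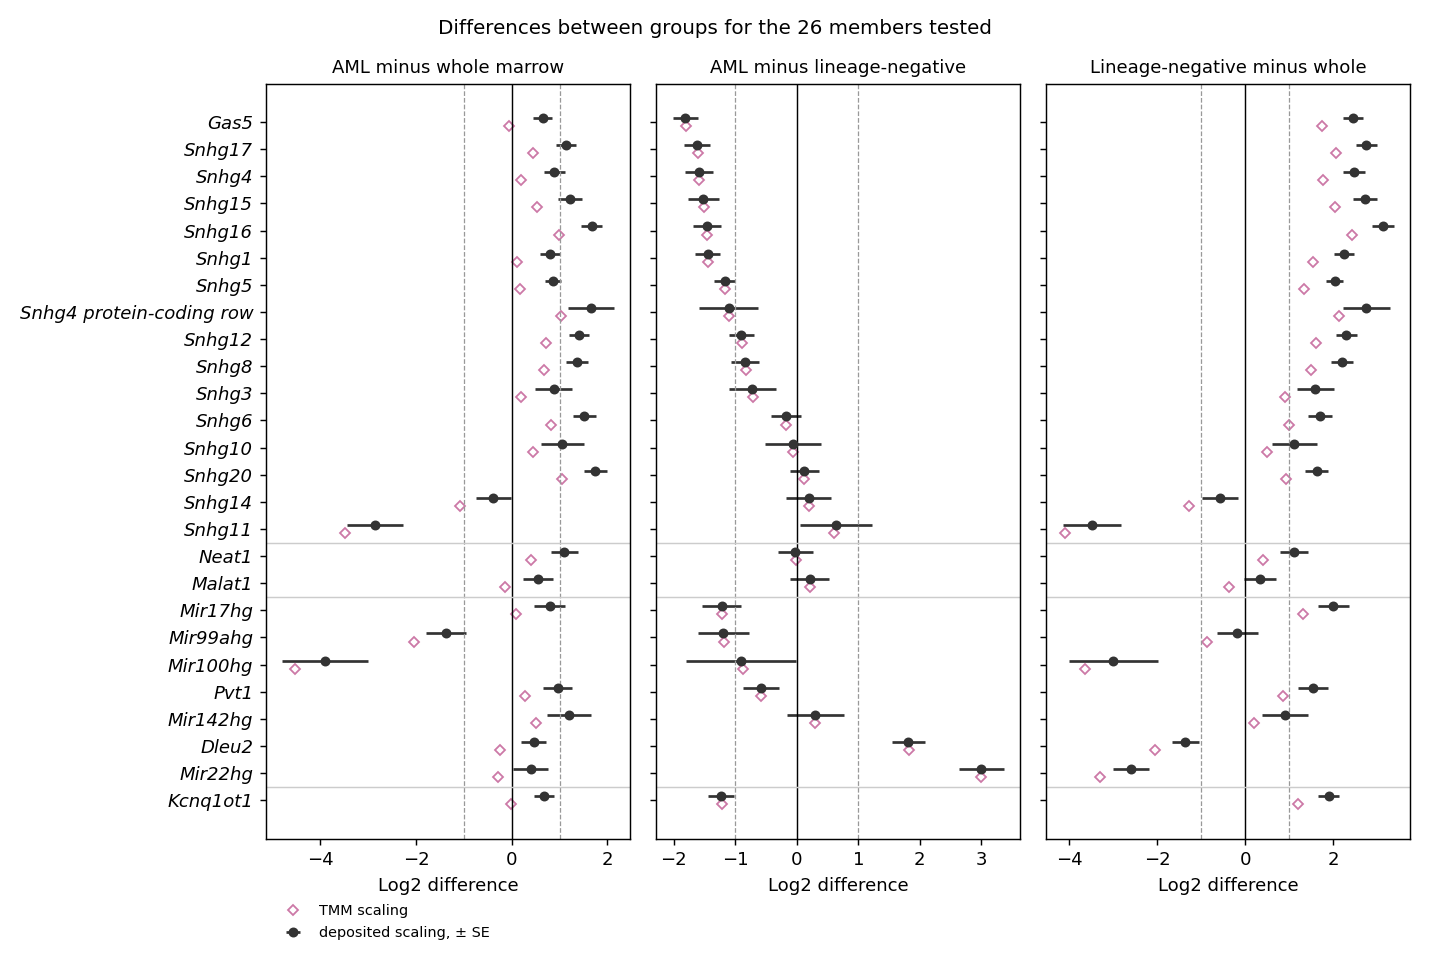
Log2 differences of the 26 tested rows in the 3 comparisons, with deposited scaling as filled points with SE bars and TMM scaling as open diamonds, and dashed lines at −1 and 1. Both scalings coincide for AML minus lineage-negative marrow, and TMM values lie lower in the panels with whole marrow.

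Genes of the proteins that assemble and work with snoRNAs were also lower in AML than in lineage-negative marrow. The 14 listed snoRNP proteins were all tested, and their median log2 difference of AML from lineage-negative marrow was −1.45, against 0.02 over all genes. In that comparison 12 of the 14 fell under both scalings, against 12.3% of all genes. They were the box C/D proteins Fbl (−1.18), Nop56 (−1.75), Nop58 (−1.97), Snu13 (−1.03) and Rrp9 (−1.55). The box H/ACA proteins were Dkc1 (−1.71), Gar1 (−1.85) and Nhp2 (−1.28), with their assembly factors Naf1 (−1.47) and Shq1 (−1.32). The helicases Ruvbl1 (−1.64) and Ruvbl2 (−1.44) also fell. Nop58, a core box C/D protein, was at 819.9 to 1677 in AML against 3541 to 5416 in lineage-negative marrow. Dkc1, the pseudouridine synthase, was at 837 to 1759 in AML against 3169 to 5104 in lineage-negative marrow, and neither gene overlapped between these groups. In AML against whole marrow 0 of 14 were called under both scalings, where 4.73% of all genes were higher and 11.3% lower. In lineage-negative against whole marrow 12 of 14 were higher, against 11% of all genes. The lists were chosen with earlier results of these data known.

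In the same comparison of AML with lineage-negative marrow, 17.5% of all genes were higher and 12.3% lower under both scalings. None of 10 genes of nonsense-mediated decay was called there, and their median log2 difference was −0.27. Of 12 genes of microRNA processing, 3 fell. They were Drosha, the nuclear nuclease, with a log2 difference of −1.71 (adjusted p = 1.5e-06), Xpo5, the export receptor of hairpins, with −1.09 (adjusted p = 7.48e-05) and Ago1 with −1.02 (adjusted p = 0.000322), and the median of the 12 was −0.28. None of 9 paraspeckle proteins was called, with a median of −0.74. Of 7 nuclear speckle proteins, Mettl16, a methyltransferase that binds the end of Malat1, fell, with a log2 difference of −1.68 (adjusted p = 7.85e-08), and the median was −0.56. No gene of these lists was called in AML against whole marrow under both scalings.

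Some small RNA genes had rows of their own beside their hosts. In Snhg3, Snora73a was at 585, 1713 and 4704 as the lowest, median and highest AML values and at 274, 561, 434 and 523 in lineage-negative marrow, a log2 difference of 1.8 (adjusted p = 0.0014), while Snhg3 itself had −0.72. Snora73b differed by 1.4 (adjusted p = 0.00987) and Snora74a, in Snhg4, by 2.15 (adjusted p = 0.00246), where Snhg4 had −1.59. AML replicate 4 was the highest AML library for all 3, at 4704 for Snora73a. Scarna13, in Snhg10, was at 2070.0, 3885 and 6649 in AML, 848, 1627, 1304 and 1534 in whole marrow and 2791, 2714, 2421 and 2358 in lineage-negative marrow, and rose against whole marrow by 1.53 (adjusted p = 0.000101) with the deposited scaling, where Snhg10 had 1.06. Against lineage-negative marrow neither was called. The scaRNA gene in Snhg20 was not called there, at 1.03 (adjusted p = 0.514), or against whole marrow, at 0.70 (adjusted p = 0.629). Snora78, in Snhg9, was not called against lineage-negative marrow, at 1.77 (adjusted p = 0.0571), and was against whole marrow, at 1.75. It passed the filter only with the help of AML, so nothing is read from it. Higher calls with the deposited scaling were 17.7% of all genes against lineage-negative marrow and 27.3% against whole marrow. Difference of a small RNA from its host was not tested, and recovery of such short RNAs in a total RNA library was not tested either. Most snoRNAs and all microRNAs of the hosts had no row here and were not analysed.

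Snhg9 and Snhg18 were too low for a test. Snhg9, which overlaps the highly expressed Rps2 on the opposite strand, was at 3.7 to 11.3 in AML, 0 to 2.73 in whole marrow and 0.908 to 6.17 in lineage-negative marrow. Snhg18 was at 0 to 18.4, 6.26 to 9.55 and 0 to 1.96 in the same order, and was listed at 0 in lineage-negative replicates 1 to 3. Mir205hg and Mir670hg reached at most 8.98 and 8.98, both in whole marrow replicate 1, just under the limit of 10, and Snhg9, just inside it, reached 11.3.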

How the data were processed

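The deposited table holds signal values: per the table's name and the submitters' processing notes, estimated reads of a gene were scaled by the authors with DESeq2 size factors (poscounts), and these normalized counts were used as deposited. The notes name Partek, STAR and mm10. Versions, the annotation release and the strand setting are not given in the sources used here. Libraries followed a stranded total RNA protocol, per the labels. Groups and replicate numbers came from the sample titles.

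Positions and lengths are from GENCODE M21 (GRCm38), matched by gene identifier for 38066 genes, because the start in the table was the same for 861 of them. Among the members, gene length differed between the table and this annotation for Snhg5, Snhg11, Snhg15 and Snhg16. Depth was estimated from the value of 1 read. Of low values, 82.2% to 87.1% were whole multiples of it, within 0.02, so whole reads were not recovered and no count test was run.

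Log2(value + 1) of the 18941 genes with at least 10 in at least 4 libraries were fitted with limma 3.58.1 in R 4.3.3 as 3 group means in 1 model (mean-variance trend, two-sided, Benjamini-Hochberg over all genes kept), tested on simulated data. TMM was computed from the genes kept. Alternatives were TMM, pseudocounts of 0.1 and 5, no filter, a mean of at least 50, pairs of groups alone, a replicate block, and leaving out libraries. The members and lists were chosen with earlier results of these data known. The text names any measured member, gives library values for the 6 genes listed by symbol, the microRNA hosts and the Snhg genes called against AML under both scalings, and names other listed genes where called under both scalings in a comparison with AML. Values of Snhg10, Snhg14 and of embedded small RNAs are given beyond this rule. Reads of overlapping genes and paralogs may have been split between them.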

Additional observations from a re-analysis of the deposited data

Results flagged for a closer look

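The 29 measured rows had 78 groups of values that reached 10 in at least 1 library. Among them 8 values stood apart from the rest of their group by Dixon's criterion at 95%, whose nominal rate is about 1 of 20 groups. That rate need not hold here, because an outlying value of at least 10 could itself bring in its group. This was so for Mir100hg in lineage-negative marrow and Snhg18 in AML. The groups of lineage-negative marrow gave 4 of them. Mir100hg was at 95.3 in lineage-negative replicate 4, against 1.82 to 3.53 in the other 3. Mir142hg was at 569 in lineage-negative replicate 1, against 56.4 to 122, and Pvt1 was at 96.2 in the same library, against 139 to 144. The protein-coding row of Snhg4 was at 73.9 in lineage-negative replicate 2, against 28.2 to 34.0.

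In AML, Snhg6 and Snhg8 were highest in replicate 4, at 422 and 781, against 242 to 295 and 397 to 547 in the other 6 libraries. Snhg14 was lowest in AML replicate 1, at 19.1, against 39.6 to 53.3. Snhg18 was at 18.4 in AML replicate 3, against 0 to 7.87.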

How the results depend on the processing

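Between AML and lineage-negative marrow, both higher calls and 9 of the 10 lower calls held in every alternative in which the gene was tested, the exception being Mir99ahg. Against whole marrow 1 of 11 higher calls did, that of Snhg20, and the lower call of Mir99ahg. In lineage-negative against whole marrow 12 of 17 higher calls did, and of the 4 lower calls those of Dleu2 and Mir22hg. Snhg11 and Mir100hg, lower in both comparisons with whole marrow, would not have passed the filter without whole marrow, so their calls say nothing of stability. With TMM 1 row was called higher in AML than in whole marrow, and 11 with the deposited scaling. Snhg10 kept its call against whole marrow in 4 of 22 alternatives. A mean of at least 50 left 0 lower rows in AML against whole marrow, where 3 were lower, and 2 in lineage-negative against whole marrow, where 4 were, because it removed low genes. Without AML replicates 5 and 6 together, the counts in AML against whole marrow were 9 higher and 3 lower.

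Leaving out 1 library at a time gave 7 to 12 higher and 2 to 3 lower rows for AML against whole marrow, 2 higher throughout and 9 to 11 lower for AML against lineage-negative marrow, and 16 to 18 higher and 3 to 4 lower for lineage-negative against whole marrow. The 7 came without whole marrow replicate 1, where Neat1, Snhg15, Snhg17 and Snhg10 lost their calls. Snhg11 was not tested when a whole marrow library was left out.

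No called difference changed sign. Among differences not called, TMM turned those in AML against whole marrow to −0.024 for Kcnq1ot1, −0.24 for Dleu2, −0.30 for Mir22hg, −0.15 for Malat1 and −0.051 for Gas5, and that of Malat1 in lineage-negative against whole marrow to −0.36. Leaving out 1 library also turned differences that were not called. In AML against lineage-negative marrow the ranges were −1.42 to 0.28 for Mir100hg (positive without lineage-negative replicate 4), −0.13 to 0.97 for Mir142hg, −0.29 to 0.29 for Neat1, −0.35 to 0.20 for Snhg10 and −0.022 to 0.43 for Snhg14. In lineage-negative against whole marrow the range of Mir99ahg was −0.34 to 0.055. The cause was not tested.

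No sign of pairing by replicate number was seen: correlations of same-numbered deviations ran from −0.288 to 0.171, and 7 of 24 combinations correlated best with their own number. Such correlations cannot exclude that same-numbered normal samples came from the same animals. With replicate number as a block, 11 rows were higher and 3 lower in AML against whole marrow, 2 higher and 11 lower against lineage-negative marrow, and 17 higher and 4 lower in lineage-negative against whole marrow. Snhg11, Mir100hg, Mir99ahg, Snhg14 and the protein-coding row of Snhg4 lay near the level of receptor genes in whole marrow, which limits what can be said of them there.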
